A study of Mus musculus with 8 samples.

Results

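The immediate early genes described here were 10 genes, Fos, Fosb, Jun, Junb, Egr1, Egr2, Ier2, Ier3, Atf3 and Dusp1, found by symbol in a table of 55536 genes. They were measured in posterior palatal shelves, the paired outgrowths that form the roof of the mouth, cut from mouse embryos at E14.5 before elevation, with epithelium and mesenchyme together. The 4 control libraries came from embryos with floxed alleles of both co-activator genes (Yapfl/fl;Tazfl/fl) and no Cre. The 4 mutant libraries came from embryos with the same floxed alleles and Col2Cre, a Cre named for Col2a1, the cartilage collagen gene, so deletion is directed to cells that use that regulatory sequence and other cells of the shelf can keep both genes. Whether each library is 1 embryo is not said in the labels, and the p-values then describe only how far these 8 libraries spread, which may be technical. Shelves were cut with forceps and put in lysis buffer on ice.

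Immediate early genes are transcribed within minutes of a growth factor, mechanical or stress stimulus, without new protein synthesis, from promoters held ready by CREB and by serum response factor (SRF) with its ternary complex factor partners. Most of their products are transcription factors, and their transcripts are short-lived. Fos and Jun proteins pair to form AP-1, EGR proteins are zinc finger activators, and Dusp1 encodes a phosphatase that switches off the MAP kinases that induced it. Cutting and handling a tissue can induce them too.

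RefSeq's promoter table (GRCm38.p6) held windows for 8 of the 10 members, all but Egr1 and Ier2, and the 250 bases before each start were searched on both strands. The CREB half-site TGACG stood before 6 of 8 members (Fos, Fosb, Junb, Egr2, Atf3 and Dusp1), against 17.8% of all 32851 windows of that length. A gene with several starts has several windows, and a member was counted when any of its windows held the motif. Egr2 had 5 windows, and those with a match lie inside its gene span given below. The full palindrome TGACGTCA, which contains that half-site on both strands, was found only before Dusp1 among the 8, and in 1.55% of all windows. The SRF site known as the CArG box was found only before Egr2 among the 8, against 1.47% of all windows. The AP-1 site TGANTCA was found before none of the 8 and in 6.75% of all windows, and its variant TGACATCA before Jun, against 2.93%. The EGR site GCGNGGGCG stood before Fosb (4.70% of all windows) and TATAAA before Fos (12.4%). A match is a run of letters in this window and was not tested as a binding site. Bases farther upstream or past the start were not searched, so a motif not found here may stand outside the window.

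The 200 bases before the start are shown for the AP-1 partners Fos, Jun and Junb, whose levels are compared library by library below, and for Dusp1, whose highest and lowest library differed least, by 1.30-fold. Capitals mark the CREB half-site and its palindrome, the TATAAA box of Fos and the variant AP-1 site of Jun. For Egr2, 30 bases are shown with the CArG box in capitals. The stretches lie at chr12:85473690-85473889 (plus strand) for Fos, chr4:95052223-95052422 (minus strand) for Jun, chr8:84978749-84978948 (minus strand) for Junb, chr17:26508473-26508672 (minus strand) for Dusp1 and chr10:67537793-67537822 (plus strand) for Egr2.
Fos: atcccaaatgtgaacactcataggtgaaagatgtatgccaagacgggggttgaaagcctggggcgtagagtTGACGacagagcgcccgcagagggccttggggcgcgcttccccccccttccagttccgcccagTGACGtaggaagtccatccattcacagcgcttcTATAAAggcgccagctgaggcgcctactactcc
Jun: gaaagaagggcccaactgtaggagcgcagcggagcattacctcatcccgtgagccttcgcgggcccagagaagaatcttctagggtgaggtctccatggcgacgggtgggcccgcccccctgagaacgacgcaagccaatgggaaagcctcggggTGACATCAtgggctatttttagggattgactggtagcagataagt
Junb: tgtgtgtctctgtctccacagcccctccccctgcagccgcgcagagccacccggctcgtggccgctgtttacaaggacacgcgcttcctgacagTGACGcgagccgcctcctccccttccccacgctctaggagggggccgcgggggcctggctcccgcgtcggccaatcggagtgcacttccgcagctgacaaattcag
Dusp1: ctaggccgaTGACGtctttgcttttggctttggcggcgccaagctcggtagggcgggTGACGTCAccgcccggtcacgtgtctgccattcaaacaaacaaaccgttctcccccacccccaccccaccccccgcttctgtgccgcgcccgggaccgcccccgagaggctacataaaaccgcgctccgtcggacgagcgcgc
Egr2: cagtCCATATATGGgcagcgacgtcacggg
The half-site nearest the start of Fos begins 66 bases before it and that of Junb 106 bases before it, while the full palindrome of Dusp1 begins at 143 bases. Distances are from RefSeq's starts, which for Junb and Dusp1 differ from the starts of the gene spans given below. Part of the Dusp1 stretch lies inside its gene span.

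The members are compact genes. In the table's coordinates, which equal GRCm38 gene models for all but Dusp1, Fos lies at chr12:85473890-85477273 and Fosb at chr7:19302696-19310051, Jun at chr4:95049034-95052222 and Junb at chr8:84974484-84978718, Egr1 at chr18:34859823-34864984 and Egr2 at chr10:67535475-67542188. Ier2 lies at chr8:84661331-84662852, Ier3 at chr17:35821684-35822923, Atf3 at chr1:191170296-191218039 and Dusp1 at chr17:26505590-26508519. Their median span was 3809.5 bp, against 24937 bp for 14548 protein-coding genes tested, and 9 of the 10 were between 1240 bp (Ier3) and 7356 bp (Fosb), with Atf3 at 47744 bp. The pentamer ATTTA, the core of AU-rich elements that shorten the life of a message, occurred at least once in the longest annotated 3′ untranslated region of 9 of 10 members, against 70.5% of 14560 genes, with Ier2 the exception. Per kilobase of that region the median was 2.88 pentamers in members and 1.21 in all coding genes tested, with Ier3 at 8.12 and Dusp1 at 5.77. The longer form TTATTTATT stood in 2 of 10 members, Fos and Dusp1, against 8.08% of 14560 genes.

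The 8 libraries held 29025090 to 32437977 recovered reads. Of the targeted genes, Yap1 averaged 9610 ± 429 normalised counts over the controls against 8463 ± 277 over the mutants (SD, n = 4 per genotype), with all mutants below all controls. Wwtr1, the TAZ gene, averaged 4879 ± 352 against 4007 ± 397, with 1 mutant library above the lowest control. Neither passed the test (limma adjusted p = 0.751 for both). Normalised counts are reads divided by a size factor per library, so that libraries of different depth compare. Of the palatal mesenchyme genes, Barx1, Meox2 and Tbx22 were present in all 8 libraries (Tbx22 at 1033 to 1949 normalised counts), while Msx1, a gene of the anterior palate, was at 34.0 to 132. Mutant replicate 2 had the highest epithelial and erythroid and the lowest osteogenic, chondrogenic and endothelial marker levels of the 8 libraries. The differences of several genes, and the median over the members, are given with and without it. Counts of genes over the related lists and marker lists were not repeated without it. In bulk tissue, fewer cells of a type and less RNA per cell cannot be told apart.

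No immediate early gene passed the test between genotypes. Of the 10 members, all of which passed the filter on low values, 0 passed limma at an adjusted p below 0.05 over 16647 genes, where 0.0240% of all genes passed. An unadjusted p below 0.05 was reached by 1 of 10, Ier2, against 6.57% of all genes, and 1 of 10 had groups that did not overlap, again Ier2, against 3.77% of all genes in either direction. Counts recovered as whole reads gave 0 members past the threshold with edgeR and 0 with DESeq2. On the log2 scale the mutant mean was above the control mean for 9 of the 10, all but Dusp1, as it was for 8317 of the 16647 genes, although for Egr2 and Ier3 the mean normalised count was lower in mutants. The median log2 difference over the 10 was 0.21, against -0.00015 over all genes tested. The share of reads at the ribosomal RNA locus Gm42418 also parted the genotypes, at 4.22% to 5.66% in control and 1.56% to 2.48% in mutant libraries, and its part in this shift or in Ier2 was not tested. The differences ran from -0.045 for Dusp1 to 0.66 for Atf3. All members are counted in the same 8 libraries, so their directions are not independent of each other.

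**Figure D1:**
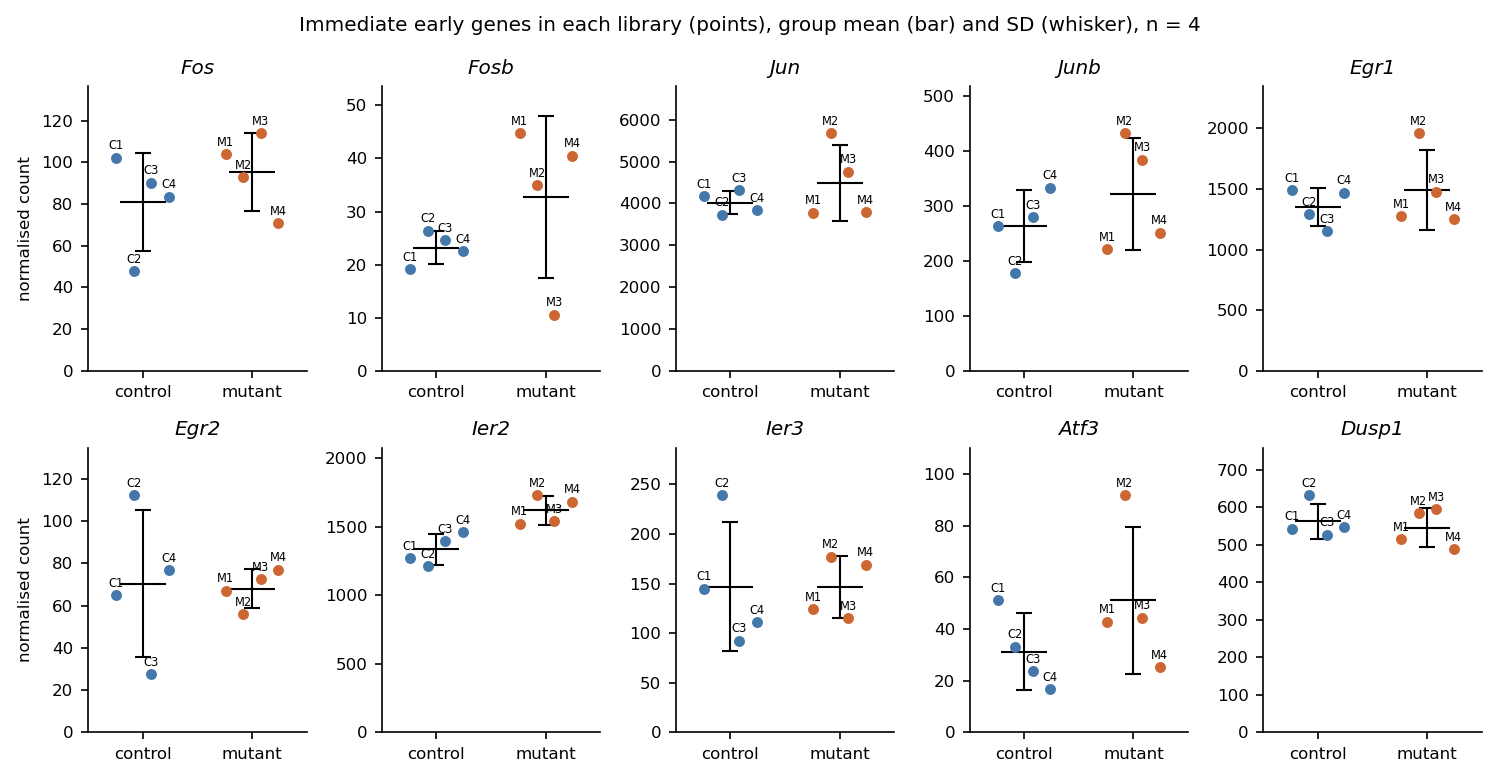
Normalised count of each immediate early gene (vertical axis, from 0) in each control (C1 to C4) and mutant (M1 to M4) library, with the group mean as a bar and the SD as a whisker (n = 4). Only Ier2 had its 4 mutant libraries, at 1522 to 1732, above its 4 controls, at 1214 to 1460.

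Ier2, a small nuclear protein gene induced with the AP-1 genes, was the member whose groups separated. Control libraries held 1270.3, 1214, 1397 and 1460.3 normalised counts in replicates 1 to 4, and mutant libraries 1522, 1732, 1539.8 and 1683. All 4 mutants lay above all 4 controls, and 1.86% of all genes tested lay apart in that direction. The group means were 1336 ± 113 and 1619 ± 104 (SD, n = 4 per genotype). On the log2 scale they differed by 0.28 (SE 0.0811, 95% interval 0.10 to 0.46), with an unadjusted limma p of 0.00499 and an adjusted p of 0.754 over all genes, so the difference failed the correction. Leaving out each library in turn gave 0.23 to 0.32, and libraries whose titles start with the same number, whose meaning the labels do not give, gave 0.34 within 2057 (2 controls, 1 mutant) and 0.22 within 3602 (1 control, 2 mutants). Over the alternative fits the adjusted p ran from 0.294 with DESeq2 to 0.975 without mutant replicate 2.

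Among the AP-1 genes, Fos, the classical inducible partner, was low in every library. Controls held 102, 47.8, 90.3 and 83.5 normalised counts and mutants 104, 92.8, 114 and 70.8. The groups overlapped, and control replicate 2 was the low library. Mutants exceeded controls by 0.27 on the log2 scale (SE 0.299, 95% interval -0.39 to 0.92, limma adjusted p = 0.891), and by 0.034 without control replicate 2. Fosb, the close paralog of Fos, was lower still, with 19.2, 26.4, 24.6 and 22.6 in controls and 44.7, 35.0, 10.6 and 40.5 in mutants. For Fosb 3 mutants lay above all controls and mutant replicate 3 below all of them. The difference on the log2 scale was 0.31 (SE 0.501, limma adjusted p = 0.931), 0.77 without mutant replicate 3 and 0.11 without mutant replicate 1.

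Jun, the most abundant member and the AP-1 partner that can bind DNA as a dimer with itself, held 4174, 3734, 4311 and 3845 normalised counts in controls and 3781, 5672, 4763 and 3786 in mutants. Mutant replicates 2 and 3 lay above all controls and the other mutants among the lower controls. For Jun the genotypes differed by 0.15 in log2 (SE 0.117, 95% interval -0.11 to 0.40, limma adjusted p = 0.837), and 0.027 without mutant replicate 2. Junb, a Jun relative with weaker activating capacity, held 264, 178, 280.1 and 334 in controls and 222, 432.5, 385 and 252 in mutants, with the same 2 mutant libraries on top. For Junb they differed by 0.27 (SE 0.249, limma adjusted p = 0.864), 0.11 without mutant replicate 2 and 0.092 without control replicate 2. Junb shares 173 bp of exon with Prdx2 on the opposite strand, a gene with 7873 reads on average, and Jun shares 232 bp with the antisense gene Junos, with 24.9 reads. No source used here gives the strand setting of the counting, so reads of these partners in the shared stretches cannot be told apart.

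Atf3, a stress-induced factor that pairs with Jun proteins, had the largest log2 difference of the members and a wide spread. Controls held 51.1, 33.2, 23.6 and 16.7 normalised counts and mutants 42.8, 91.8, 44.4 and 25.3. Only mutant replicate 2 lay above all controls. In log2 the genotypes differed by 0.66 (SE 0.482, 95% interval -0.39 to 1.71, limma adjusted p = 0.818), and 0.33 without mutant replicate 2.

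**Figure D2:**
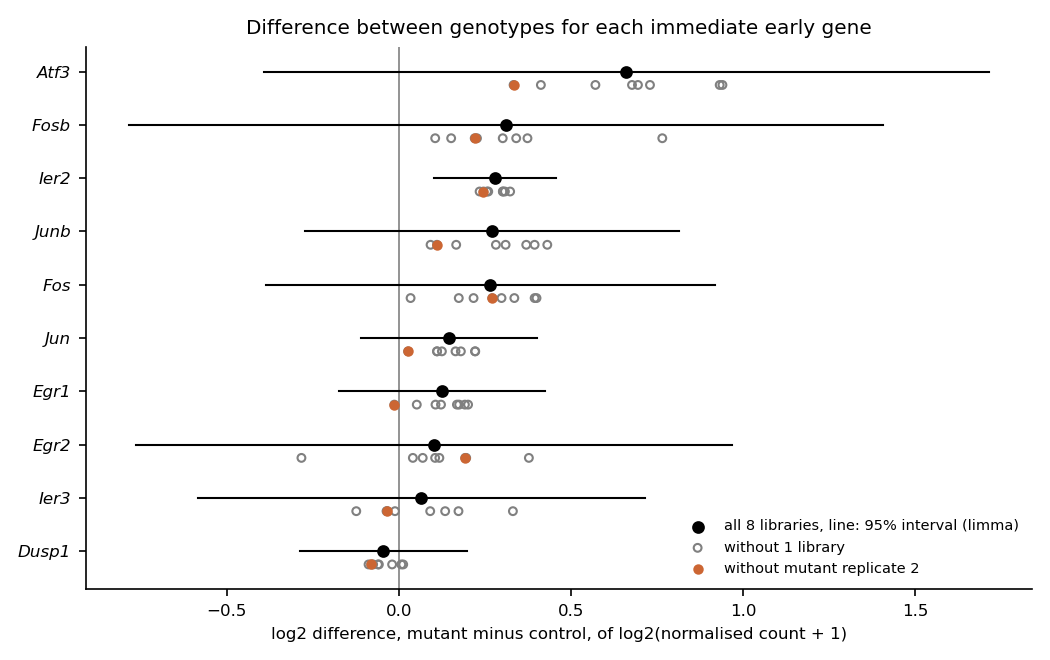
Log2 difference between mutants and controls for each gene (black point) with its 95% interval from limma (line), the values without each library in turn (open circles) and without mutant replicate 2 (filled orange). The interval lay above 0 only for Ier2, and Egr1 moved from 0.13 to -0.013 without mutant replicate 2.

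The EGR genes did not separate the genotypes. Egr1, the zinc finger factor induced by growth factors and stretch, held 1491, 1292.5, 1154 and 1471 normalised counts in controls and 1279, 1958, 1477 and 1254 in mutants. Mutant replicate 2 was the one library above the controls for Egr1, and its log2 difference went from 0.13 (SE 0.137, limma adjusted p = 0.890) to -0.013 without that library. Egr2, known for its part in hindbrain segments and myelinating Schwann cells, held 65.0, 112, 27.7 and 76.6 in controls and 67.1, 55.8, 72.4 and 76.9 in mutants. Here the controls spanned the full range and the mutants lay inside it. The log2 difference of Egr2 was 0.10 (SE 0.396, limma adjusted p = 0.977), 0.38 without control replicate 2 and -0.28 without control replicate 3, its highest and lowest libraries. All 6 Schwann cell markers had higher means in mutants, with sums of 2907 to 3412 over controls and 3020.2 to 6570 over mutants and none at 0. Their mean level was highest in mutant replicate 1, at 1.25, against -0.31 to 0.42 in the other mutants and -0.78 to -0.069 in controls. The part of these markers in Egr2 was not tested.

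Ier3, an early response gene that acts in survival signalling, held 145, 239, 92.3 and 111 normalised counts in controls and 125, 177, 115 and 169 in mutants. Control replicate 2 was highest and control replicate 3 lowest, so the mutants again lay inside the controls (log2 difference 0.066, SE 0.297, limma adjusted p = 0.979). It was 0.33 without control replicate 2 and -0.12 without control replicate 3. Dusp1, the feedback phosphatase, held 543, 633, 527 and 546 in controls and 515, 585, 594 and 487.5 in mutants. Mutant replicates 1 and 4 lay below all controls and the other mutants inside them. Dusp1 differed by -0.045 in log2 (SE 0.111, limma adjusted p = 0.963), with a 95% interval of 0.82-fold to 1.15-fold.

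These intervals bound what the 8 libraries could show for single genes. For Jun, Egr1, Ier2 and Dusp1 the upper ends were 1.32-fold, 1.34-fold, 1.37-fold and 1.15-fold. For the low members they were wide, reaching 2.65-fold for Fosb and 3.28-fold for Atf3, so these libraries set no narrower bound on them. Counting error alone would give Fosb an SD of 0.27 on the log2 scale and Jun one of 0.022, and the observed SD within groups was 2.45 and 9.65 times as large.

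**Figure D3:**
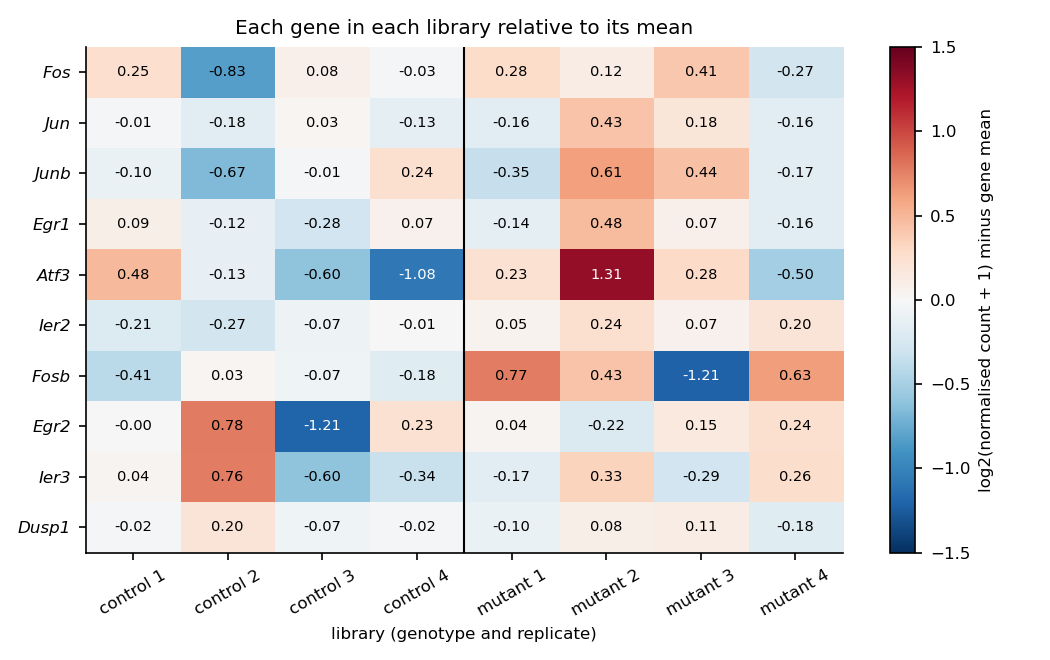
Log2(normalised count + 1) of each immediate early gene (rows) in each library (columns) minus the gene's mean over the 8 libraries, with the genotypes parted by a line, red above the mean and blue below. Mutant replicate 2 was above the gene mean for 9 of 10 genes, and control replicate 2 was lowest for Fos, Jun, Junb and Ier2 and highest for Egr2, Ier3 and Dusp1.

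The members did not move as 1 block between libraries. Mutant replicate 2 was the highest library for 5 of 10 members (Jun, Junb, Egr1, Ier2 and Atf3), and its mean level over the members, each centred on its own mean, was 0.38 on the log2 scale, against -0.011 to 0.046 in the other mutants and -0.28 to 0.011 in controls. Control replicate 2 was lowest for 4 members (Fos, Jun, Junb and Ier2) and highest for 3 (Egr2, Ier3 and Dusp1). Jun and Junb ordered the libraries alike at both ends, with mutant replicates 2 and 3 on top and mutant replicate 4, mutant replicate 1 and control replicate 2 at the bottom. Egr2 and Ier3 shared both their highest library, control replicate 2, and their lowest, control replicate 3. Fos and Fosb went apart in mutant replicate 3, which held the most Fos and the least Fosb of the 8. Within genotypes the SD was 0.41 on the log2 scale for the median member and 0.19 for the median of all genes tested. Atf3 and Fosb, at 0.71 and 0.66, varied more than 86.1% and 84.7% of genes, and Ier2, at 0.11, more than 23.9%. These shares are over genes of any level, and were not matched for it. By mean normalised count Atf3 and Fosb were at the 16.4 and 12.7 percentile, and Ier2 at the 68.8. Without mutant replicate 2 the median log2 difference over the 10 members was 0.15.

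Several lists of markers of other cell types had their highest or lowest level in mutant replicate 2, but not all. Skeletal muscle markers were highest in mutant replicate 3, at 0.87, and lowest in mutant replicate 4, at -1.05. Macrophage markers were also highest in mutant replicate 3, at 0.24. All 12 epithelial markers had higher means in mutants, with summed levels of 30037 to 43193 normalised counts in controls and 32860 to 59215 in mutants, none of them at 0, and their mean level of 0.58 in mutant replicate 2 was the highest of the 8 libraries. All 7 erythroid markers were higher too, at 19431 to 23721 in controls and 16025 to 42302 in mutants, again highest in that library at 0.74, with none at 0. All 9 tested osteogenic markers were lower in mutants, at 22561 to 42344 in controls and 6239 to 21280.1 in mutants, with the lowest level, -1.32, in mutant replicate 2, and Bglap was at 0 in all libraries. Of 8 chondrogenic markers 7 had lower means in mutants (median log2 difference -0.68), with sums of 19305 to 33099 in controls and 9562 to 23329 in mutants, none at 0, and a level of -0.76 in mutant replicate 2. Of 7 skeletal muscle markers 4 had higher means, with sums of 33657 to 42902 in controls and 17063 to 64604 in mutants. Of 8 endothelial markers 7 were lower, at 16716 to 18422 in controls and 12616 to 16798.5 in mutants, with none at 0. Macrophage markers, of which 6 of 8 had higher means in mutants and none was at 0, summed to 3469 to 4069 in controls and 3386 to 4427 in mutants. The part of these cells in the levels of the immediate early genes was not tested.

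Per exon length, Jun and Ier2 were the high members. Their mean levels were 1335 and 971 normalised counts per kilobase, and Jun, from 1171 to 1779 over the 8 libraries, lay above Ier2, from 798 to 1138, in all of them. Egr1 followed at 317 and Dusp1 at 205, without overlap between them. Ier3 and Junb, at 129.6 and 127, could not be separated, with ranges of 81.6 to 211 and 77.2 to 188 that also reached the lowest Dusp1 library, at 181. Fos, at 37.5, overlapped in range with Egr2, at 20.4, and Atf3, at 19.1, while Fosb, at 4.48, was below the lowest library of any other member. Among all genes tested, this put Jun at the 94.3 and Fos at the 26.6 percentile of level per length.

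**Figure D4:**
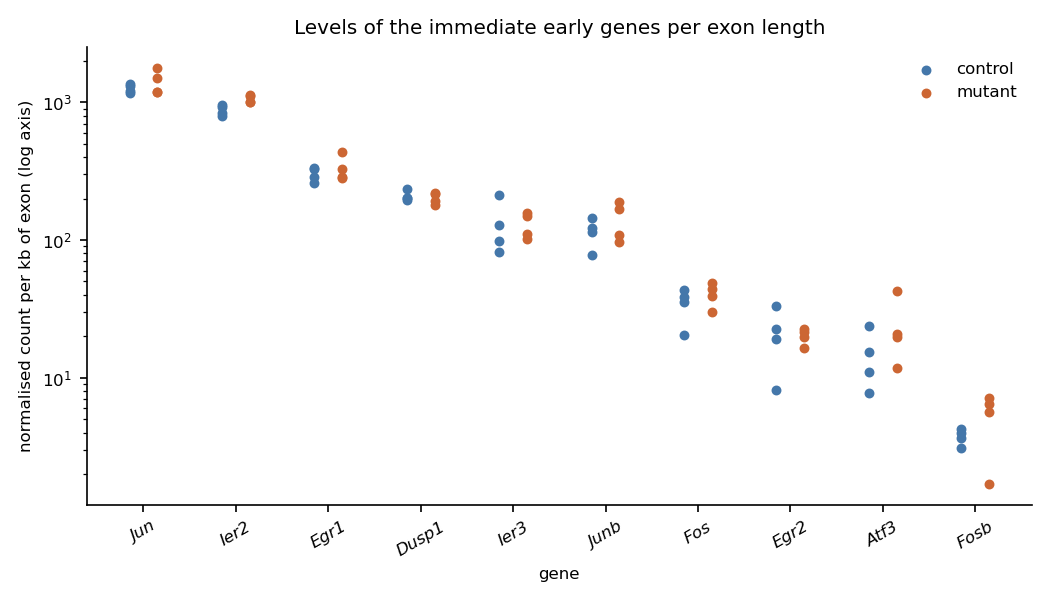
Normalised count per kilobase of exon (log axis) for each immediate early gene, ordered by mean level, with 1 point per library for controls (blue) and mutants (orange). Levels ran from 4.48 per kilobase for Fosb to 1335 for Jun.

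The wider early response was examined in lists of related genes. None of the genes in these lists passed limma over all genes. The other AP-1 subunits and partners had 6 of 9 tested genes higher in mutants (median log2 difference 0.060). Maff, a small MAF protein gene, held 163 to 190.2 normalised counts over the mutants and 201 to 233 over the controls, with no overlap (log2 difference -0.30, SE 0.159, limma adjusted p = 0.773), and Fosl2, a Fos relative of bone and cartilage, averaged 3854 ± 261 against 4198 ± 491, a log2 difference of 0.12 that was 0.041 without mutant replicate 2. The remaining EGR and NAB genes included the EGR co-repressor Nab1, at 916 ± 57.7 and 778 ± 128 (log2 difference -0.25, and -0.16 without mutant replicate 1), and Egr3, at 38.8 ± 17.9 and 65.1 ± 42.5, whose log2 difference of 0.48 was 0.11 without mutant replicate 1 and 1.08 without mutant replicate 4.

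Of 39 other early response genes, 18 had the higher mean in mutants and 21 in controls, and the list's median was -0.016 in log2. An unadjusted limma p below 0.05 was reached by 8 of the 39, against 6.57% of all genes tested. Groups did not overlap for 2 that were higher in mutants and 5 that were lower, against 309 and 318 of all 16647 genes. Of those with the smallest p, Btg2 was higher in mutants and Cyr61, Nfkbiz and Klf4 were lower. Btg2, an antiproliferative gene induced by growth factors and p53, held 980, 961.5, 910 and 744 normalised counts in controls and 1136, 1487, 1272 and 982 in mutants, without overlap, the lowest mutant just above the highest control (log2 difference 0.43, SE 0.130, limma adjusted p = 0.754). Cyr61, an early gene that is also a YAP and TAZ target, held 1945, 1795, 1690 and 1736 in controls and 1405, 1618, 1425 and 1511 in mutants (log2 difference -0.27, SE 0.0736, limma adjusted p = 0.751). Nfkbiz, an inducible regulator of NF-kappaB, averaged 270.0 ± 18.1 over the controls and 187 ± 26.3 over the mutants, without overlap (limma adjusted p = 0.754). For Klf4, a zinc finger factor of epithelium, the means were 5405 ± 564 and 4359 ± 771 and the log2 difference -0.32, which was -0.20 without mutant replicate 2.

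Genes of the inducing pathway followed. The 9 genes of SRF, its partners and CREB had log2 differences from -0.11 to 0.090, and 4 were higher in mutants. Elk1 and Elk4, ternary complex factors, were at -0.075 (SE 0.0635) and -0.11 (SE 0.101). The 15 MAP kinase genes ran from -0.13 to 0.12 with 9 higher, led by Mapkapk2, a p38 target kinase, at 0.12 (SE 0.0703), and Rps6ka1, an ERK target kinase, at 0.094 (SE 0.0602). Of 14 genes of MAP kinase phosphatases and of Sprouty and Spred proteins, which restrain MAP kinase signalling, 12 were higher in mutants (median log2 difference 0.091), and their mean level was also highest in mutant replicate 2, at 0.30. Dusp6, an ERK phosphatase, averaged 2232 ± 291 normalised counts against 2566 ± 176 (log2 difference 0.21, SE 0.0906, limma adjusted p = 0.754). Dusp4, a nuclear phosphatase of the same family, was at 246 ± 42.2 and 341 ± 86.2 (log2 difference 0.45, and 0.33 without mutant replicate 2 or control replicate 1).

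**Figure D5:**
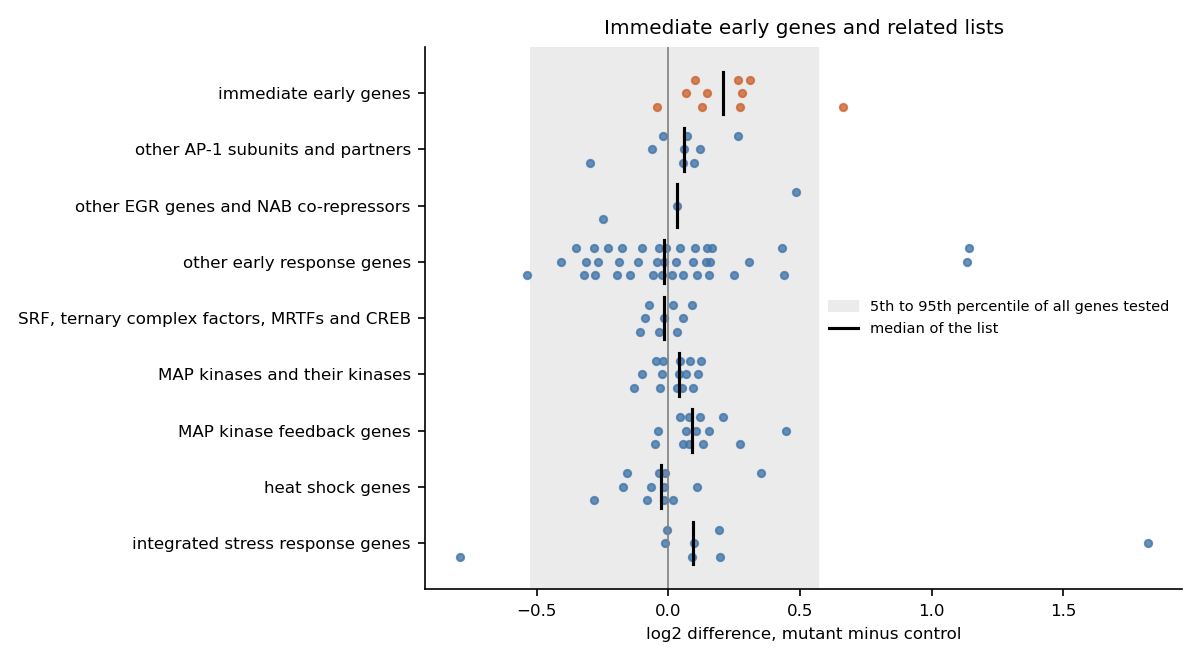
Log2 difference between mutants and controls for every tested gene (points) of the immediate early list (orange) and of related lists (blue), with each list's median as a bar; vertical scatter within a list has no meaning. The shaded band holds the 5th to 95th percentile of all genes tested, -0.52 to 0.57, and the medians of the lists lay between -0.028 and 0.21.

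Genes whose pattern over the 8 libraries was most like the mean level of the members were sought among 12776 others with a mean of at least 50. Predicted genes, clone names and genes without a symbol were left out of that search. Those with the highest Pearson r were Zfp935 (r 0.97, Spearman rho 0.76), Vwa1 (0.95, 0.90), Atcay (0.95, 0.81), Actl6a (0.95, 0.88), Nup43 (0.94, 0.86), Dna2 (0.94, 0.93), Snrpn (0.94, 0.79), Rpl13a (0.94, 0.69), Reep2 (0.94, 0.86) and Aamdc (0.94, 0.86). All share the same 8 libraries and were picked for their r, so it carries no p. Without mutant replicate 2 and control replicate 3, the libraries farthest from the median, r went to between 0.41 for Atcay and 0.85 for Dna2.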

How the data were processed

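RNA from 4 control and 4 mutant libraries was compared. The deposited signal values are normalised counts: the authors' gene reads over a size factor for each library, given to 1 decimal. The submitters' processing notes name STAR 2.7.2 and DESeq2. No source used here gives the counting tool, its strand setting, the annotation or the build. A step size fitted to each library turned 100.0% of the values from 50 to 5000 into whole reads (tolerance 0.1 reads), with size factors of 0.939 to 1.06. The deposited log2 values, variance-stabilised by the authors, served 1 alternative only. Gene starts and ends equalled those of a GRCm38 annotation for 95.2% of 52403 IDs, and exons of Dusp1 outside the table's span were left out.

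The test kept 16647 genes that reached 10 normalised counts in 4 or more of the 8 libraries. It was limma 3.58.1 (R 4.3.3), on log2 of the normalised count plus 1, with a trend on intensity and genotype as the sole term, two-sided, adjusted by Benjamini-Hochberg over all genes tested, with a threshold of 0.05. Alternatives were pseudocounts of 0.5 and 8, other filters and scalings, robust variances, library weights, the first number of the title as block or stratum, each library left out, stabilised values, edgeR 4.0.16 and DESeq2 1.42.0. Figures used matplotlib 3.10.9. Named were all 10 members, 2 genes of each related list by smallest p (4 of the largest list) and, of the 12776 searched, the 10 genes most like the members. Members and lists were chosen with earlier results of these data known.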

Additional observations from a re-analysis of the deposited data

How the results depend on the processing

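No member passed the threshold under any of the 21 alternatives with a test, and Fos, Junb, Ier2 and Atf3 kept a higher mean in mutants in every setting run for them. The count of genes past the threshold, 4 with all libraries, was 28 by DESeq2 and 0 with robust variances, and ran from 0 to 11 when 1 library was left out: 0 with control replicate 2, control replicate 4 or mutant replicate 3 left out, 11 with control replicate 3 and 8 with mutant replicate 4 left out. The median log2 difference of the members, 0.21, ran from 0.15 to 0.25 without 1 library. It was 0.049 within first title number 2057 and 0.41 within 3602. On the stabilised values it was 0.059, and there Ier2 and Egr1, which are not low genes, were at 0.16 and 0.075. Signs turned for members near 0: Egr2 was at -0.047 with edgeR, -0.051 with DESeq2 and -0.28 without control replicate 3; Ier3 at -0.0025 with edgeR, -0.0061 with DESeq2, -0.024 with library weights, -0.12 without control replicate 3, -0.035 without control replicate 4, -0.033 without mutant replicate 2 and -0.011 without mutant replicate 4; Dusp1 at 0.013 (control replicate 2 left out) and 0.0075 (mutant replicate 4 left out); and Egr1 at -0.013 without mutant replicate 2. Without 1 library, these ran up to 0.38 for Egr2, 0.33 for Ier3 and 0.20 for Egr1, and down to -0.088 for Dusp1. Within 2057, with no test, Jun was at -0.0011, Egr1 at -0.14 and Egr2 at -0.27, and within 3602 Fosb was at -0.33 and Dusp1 at 0.16. The cause was not tested.

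With the first title number as a replicate block, which leaves control replicate 1 and mutant replicate 1 without weight, 6 genes and 0 members passed, the median was 0.25, and Egr3 was at -0.20. The labels do not say what the number marks. Across genes, deviations from group means correlated at -0.081 to 0.24 in the 4 control and mutant pairs that share it. In the other 12 pairs they correlated at -0.19 to 0.16. So few pairs, which share libraries and group means, cannot show whether the number pairs the libraries. It was used only as an alternative. The fewest reads stood behind Fosb, Atf3, Egr2 and Fos, at 11 to 118 per library. Their SD within genotypes was 2.45 to 3.52 times that of counting alone. Egr3 and Chac1, low genes outside the members, were at 5.03 and 2.07 times, and the ratio was not compared with that of all genes.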

Other observations

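Stress programmes beside the immediate early response were also measured. Of 12 heat shock genes 3 had the higher mean in mutants and 9 in controls, and the list's median was -0.028 in log2. The small heat shock protein gene Hspb1 averaged 306 ± 78.6 normalised counts over the controls and 386 ± 70.9 over the mutants (SD, 4 libraries per genotype; limma adjusted p = 0.774), and the mitochondrial chaperonin gene Hspe1 at 2178 ± 361 and 1916 ± 114 (limma adjusted p = 0.800). Mutant replicate 1 had the lowest mean level of the list, -0.32, and the others lay between -0.065 and 0.13.

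In the integrated stress response list, 5 of 8 genes had higher means in mutants. Chac1, a glutathione-degrading enzyme gene induced through ATF4, held 2.1, 10.7, 9.2 and 3.9 normalised counts in controls and 24.3, 13.3, 19.3 and 37.4 in mutants. All mutants lay above all controls for Chac1, and the genotypes differed by 1.82 in log2 (SE 0.647, limma adjusted p = 0.754) on few reads. The difference for Chac1 was 1.12 with a pseudocount of 8, 0.13 on the stabilised values and, with no test, 0.74 within first title number 3602 and 2.34 within 2057. Ddit4, a stress-induced inhibitor of mTOR signalling, was at 3168 ± 380 and 3607 ± 252, a log2 difference of 0.19 (SE 0.0880) that was 0.11 without control replicate 1.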
